A study of Saccharomyces cerevisiae with 21 samples.

Results

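Nitrogen limitation was compared with carbon limitation in a baker's yeast strain that lacks the stress transcription factors Msn2 and Msn4. The comparison rests on 6 of the 21 arrays of the series, 3 from nitrogen-limited and 3 from carbon-limited cultures of the double mutant, and the arrays were chosen by their titles alone. The series measured mRNA on Affymetrix arrays in anaerobic chemostats of Saccharomyces cerevisiae limited by carbon, nitrogen, sulfur, phosphorus or zinc, with the mutant grown under carbon and nitrogen limitation only. It asked how glycogen and trehalose genes respond to the limiting nutrient and what Msn2 and Msn4 contribute when no stress is applied. Each of the 7 groups holds 3 arrays, described as independent cultures.

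Both mutant groups carried the same genotype: the CEN.PK113-7D background, mating type MATa, with MAL2-8c and SUC2, a ura3 mutation, msn2::loxP, msn4::loxP-kanMX-loxP and the plasmid p426(URA3). The plasmid carries URA3, so it complements the ura3 mutation. The carbon-limited and nitrogen-limited samples used here as wild type have no genotype in their labels. No number of independent mutant clones is given. All cultures grew at a dilution rate of 0.10 per hour and pH 5.0, with Tween-80 and ergosterol supplied because cells cannot make sterols and unsaturated fatty acids without oxygen. Residual glucose was held near 17 g per litre under nitrogen limitation and was the limiting nutrient under carbon limitation, so the comparison sets poor against ample nitrogen and high against low glucose at once, and these cannot be told apart here. A strain comparison with wild type also compares deposits, because the wild-type carbon-limited and nitrogen-limited arrays were each deposited apart from the mutant arrays. Strain and deposit cannot be told apart in it. The wild-type carbon-limited and nitrogen-limited arrays also come from separate deposits from each other, so limitation and deposit cannot be told apart in the wild-type change, in the differences between strains or on any scale set by that change.

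Yeast adjusts to the supply of nitrogen through nitrogen catabolite repression: on a good source the GATA activators Gln3 and Gat1 are held out of the nucleus, and when nitrogen is scarce they switch on permeases and enzymes that take up and degrade poor sources. Glucose acts through a separate repression system, in which Mig1 and other factors shut off genes for respiration and for other sugars while glucose is plentiful. Msn2 and Msn4 are zinc finger activators that bind stress response elements, are restrained by protein kinase A, and drive many stress and reserve carbohydrate genes.

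The labels were first checked against the arrays. Signals are in arbitrary units after scaling each array to the same 2% trimmed mean (150.1) and raising values under 12 to 12, a floor that stands for no reliable signal. Values are listed in the order of replicates 1, 2 and 3. MSN2, the deleted activator gene, gave 12, 12 and 13.7 on the carbon-limited and 13.0, 12 and 12 on the nitrogen-limited mutant arrays. All 6 were at or close to the floor, against 58.0 to 126 on the 6 wild-type arrays under the same limitations. MSN4, the second deleted gene, gave 34.5, 47.5 and 39.7 and 40.2, 55.6 and 50.6, below the wild-type range of 62.7 to 92.4. URA3, which the plasmid carries, gave 1087 to 2473 in the mutant and 30.5 to 49.9 in wild type. Genes of MATa cells were high, with the pheromone gene MFA1 at 2409 to 6356. The receptor gene STE3 of the opposite mating type lay between 15.0 and 36.8. The share of probe sets at the floor was 28.5 to 32.4% on the 6 arrays, and the ratio of 3′ to 5′ actin signal, a sign of RNA integrity, was 1.18 to 1.67 with no separation between the groups.

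One label did not match the signal. DAL5, the allantoate permease that nitrogen scarcity switches on, gave 1337, 83.5 and 109 under carbon limitation and 1577, 1884 and 2424 under nitrogen limitation. RGI2, a gene of energy metabolism that is induced at low glucose, gave 12, 302 and 225 and 12, 12 and 12. The library labelled carbon-limited replicate 1 thus carried high DAL5 and floor-level RGI2, as the nitrogen-limited arrays did, while replicates 2 and 3 carried the opposite. Over all 5461 genes tested, replicate 1 differed from the nitrogen-limited mean by 2-fold or more at 87 genes, and from the mean of carbon-limited replicates 2 and 3 at 700. For scale, each nitrogen-limited array set against the mean of the other nitrogen-limited arrays gave 51, 57 and 192 such genes. Carbon-limited replicates 2 and 3 differed from each other at 224 genes, and from the nitrogen-limited mean at 581 and 283. The correlation of replicate 1 over genes, which are not independent replicates, was 0.970 to 0.977 with the 3 nitrogen-limited arrays. It was 0.912 with carbon-limited replicate 2 and 0.944 with replicate 3. What the culture behind the replicate 1 library was cannot be settled from the files, so results are given with and without it. It was left out because of its own signals, and results without it are no independent evidence on the genes that mark it.

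**Figure D1:**
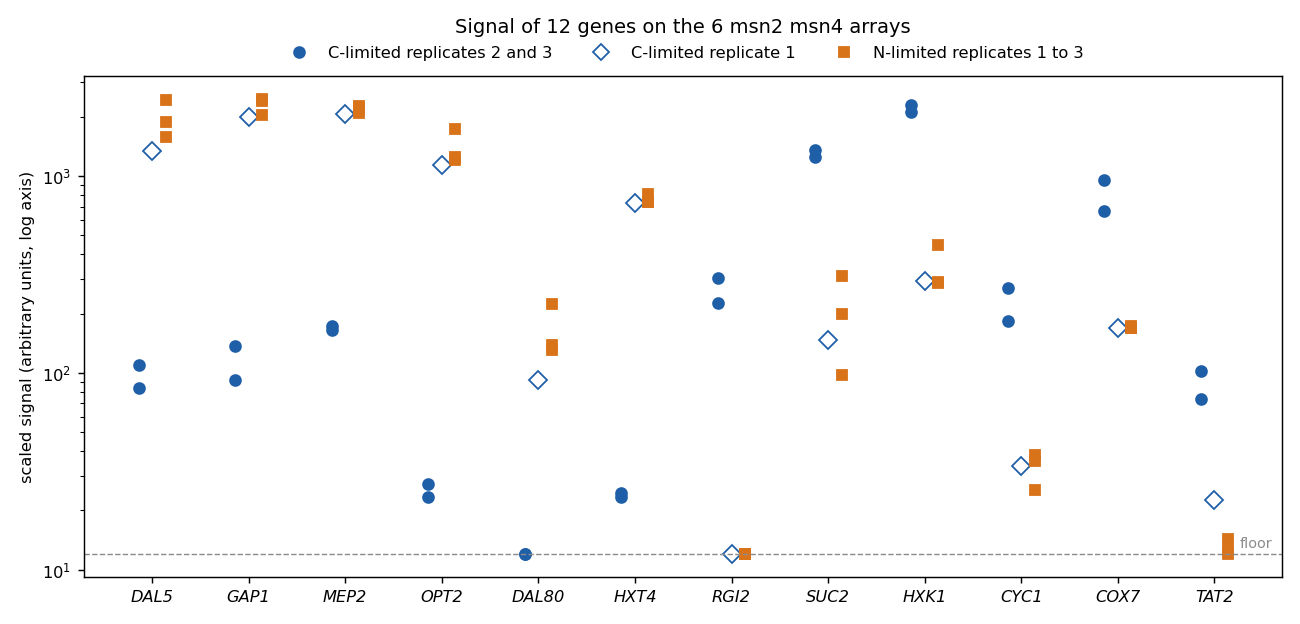
Scaled signal (log axis) of 12 genes on each of the 6 mutant arrays, with circles for carbon-limited replicates 2 and 3, open diamonds for carbon-limited replicate 1 and squares for the nitrogen-limited arrays; the dashed line is the floor of 12. The open diamonds lie by the squares for DAL5 (1337 against 1577 to 2424) and RGI2 (12 against 12), and the filled circles stand apart for every gene drawn.

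With all 6 arrays as labelled, 3 of 5461 genes were called (0.0549%), where called means an adjusted p below 0.05 in limma's moderated test and a fold of at least 2. Without an adjustment for the number of genes, 570 had a p below 0.05. Of the called genes, 2 were higher and 1 was lower under nitrogen limitation. ADY4, a gene of the meiotic spindle pole body, gave 16.9, 16.6 and 12 under carbon limitation and 51.9, 43.9 and 34.1 under nitrogen limitation. The groups did not overlap, replicate 1 included, and the fold was at least 2.85, since replicate 3 was at the floor (limma adjusted p = 0.0033). SDL1, a gene related to serine dehydratases, gave 21.3, 12 and 12 and 30.9, 35.3 and 41.0, at least 2.44-fold higher (limma adjusted p = 0.031). TAT2, the high-affinity tryptophan permease, gave 22.7, 74.1 and 102 and 12.6, 12 and 14.3, at least 4.3-fold lower under nitrogen limitation (limma adjusted p = 0.027). These are genes on which replicate 1 stayed outside the nitrogen-limited range. When limma weighted each array by its own scatter, the 6 arrays yielded 246 calls. Carbon-limited replicate 1 had a weight of 0.232, the lowest of the 21, and replicates 2 and 3 had 0.457 and 6.64. The weighted carbon-limited mean thus rested mainly on replicate 3.

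Without carbon-limited replicate 1, 282 genes were called (5.16%), of which 108 were higher (1.98%) and 174 lower (3.19%) under nitrogen limitation. The 3 genes above were among them. The median log2 change over all genes was -0.07. The 10 highest calls were OPT2, HXT4, GAP1, DAL5, DAL80, MEP2, PUT1, CPS1, DAL2 and YAR068W, most of them genes for taking up or degrading nitrogen compounds. The 10 lowest were RGI2, BAP3, GNP1, MPC3, SUC2, CYC1, TAT2, HXK1, REG2 and COX7, which include amino acid permeases, glucose-repressed genes and respiratory genes. DAL5 and RGI2 in these lists are the genes that marked replicate 1. The count rests on 2 carbon-limited arrays: leaving out replicate 2 as well gave 142 calls, leaving out replicate 3 instead gave 330, and 131 and 213 of the 282 were among them. These fits hold 1 carbon-limited mutant array, which is assumed to vary like the other groups. With only the compared arrays in the fit, whose spread then rests on few arrays, 53 genes were called.

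**Figure D2:**
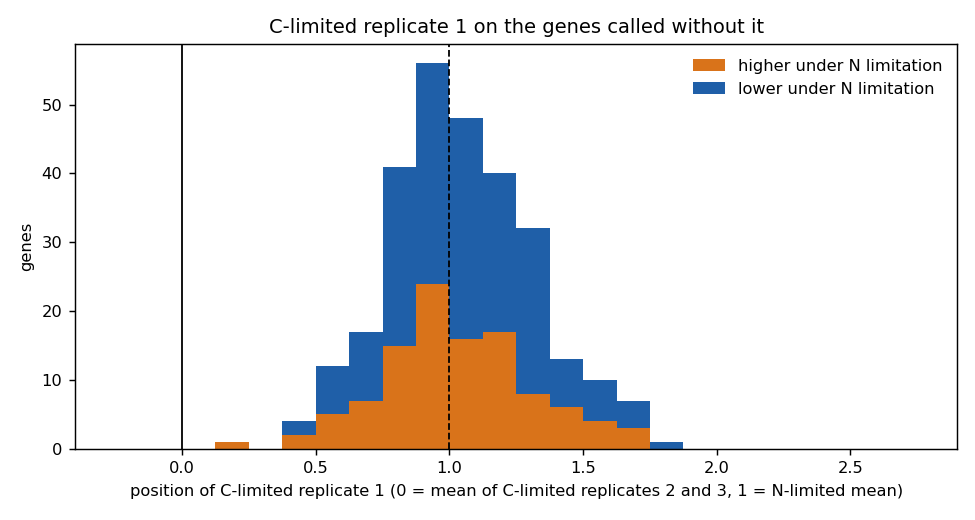
Histogram of the position of carbon-limited replicate 1 for the 282 genes called without it, on a scale where 0 is the mean log2 signal of carbon-limited replicates 2 and 3 and 1 is the nitrogen-limited mean; orange marks genes higher and blue genes lower under nitrogen limitation. The bars centre on 1 (median 1.01), and 277 of the 282 genes lie above 0.5.

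On these 282 genes, which were chosen without it, replicate 1 lay nearer to the nitrogen-limited mean at 277 and nearer to the other carbon-limited arrays at 5. Its median position was 1.01 (quartiles 0.869 to 1.23), and it fell within the range of the 3 nitrogen-limited arrays at 143 genes and within that of carbon-limited replicates 2 and 3 at 0. The 5 exceptions, named after their values were seen, were ADY4, ALD2, BSC5, IZH4 and MRX15. Among genes with a fold of at least 4, the 8 nearest to the other carbon-limited arrays had positions of 0.71 to 0.88: TAT2, the mitochondrial pyruvate carrier gene MPC3, the repressor gene DAL80, the flocculin gene FLO10, the malate synthase gene MLS1, the carboxypeptidase gene CPS1, DAL5 and YNR068C. All 8 were thus closer to the nitrogen-limited side.

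Genes that take up nitrogen compounds were among those with the highest changes. Of 19 tested genes for uptake under nitrogen catabolite repression, 9 rose and 2 fell (57.9% called, against 5.16% of all genes). The median log2 change was 1.14. OPT2, an oligopeptide transporter, gave 1139, 27.3 and 23.5 under carbon limitation and 1254, 1734 and 1212 under nitrogen limitation. Its fold without replicate 1 was 54.5 (log2 5.77 ± 0.32 SE, 3 arrays against 2, limma adjusted p = 2.3e-09), and with all 6 arrays the log2 change was 3.94 with an adjusted p of 0.13. GAP1, the general amino acid permease, gave 1993, 91.9 and 137 and 2053, 2458 and 2415, a fold of 20.5 without replicate 1 (limma adjusted p = 1.7e-08). DAL5, counted among the 9 that rose, was 20.2-fold higher without replicate 1. It helped to mark that array, so its change and its place in the count are no independent evidence. Replicate 1 stood with the nitrogen-limited arrays and far above the other carbon-limited arrays for all 3 genes.

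The ammonium permeases differed among themselves. MEP2, the high-affinity permease that also senses ammonium for filamentous growth, gave 2061, 165 and 173 under carbon limitation and 2211, 2103 and 2279.7 under nitrogen limitation, a fold of 13 (limma adjusted p = 1.9e-05). MEP3, a permease of lower affinity, gave 53.1, 61.8 and 32.0 and 63.1, 84.8 and 74.6, with no call (log2 0.73 ± 0.33 SE). Wild type had 222, 238 and 189 for MEP3 under carbon limitation and 52.5, 44.1 and 58.5 under nitrogen limitation, a called fall. The proline permease PUT4 (log2 2.65), the urea permease DUR3 (1.52), the vacuolar basic amino acid transporter VBA1 (2.62), the peptide transporter OPT1 (1.14) and the biotin precursor transporter BIO5 (1.13) also rose. The values for PUT4 and BIO5 are lower bounds, because carbon-limited arrays were at the floor. The OPT1 call was lost in 11 of the alternatives and the BIO5 call in 5. TAT2 and AGP1, a broad amino acid permease, fell, AGP1 from 297 and 448 on carbon-limited replicates 2 and 3 to 84.0, 102 and 87.4. CAN1, the arginine permease, and AVT4, a vacuolar exporter, passed the adjusted p but not the fold, with log2 changes of 0.78 and 0.90.

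Of 21 tested genes for the breakdown of nitrogen compounds, 10 rose, 0 fell and 11 were not called. The called share was 47.6%, against 5.16% of all genes, and the median log2 change was 0.99. PUT1, proline oxidase, gave 261, 22.5 and 27.6 and 428, 289 and 206, 11.8-fold higher without replicate 1 (limma adjusted p = 3.8e-07). CPS1, a vacuolar carboxypeptidase, gave 429, 60.9 and 54.9 and 489.9, 518 and 776, 10.1-fold higher (limma adjusted p = 5.6e-07). DAL2, allantoicase, gave 207, 14.9 and 28.5 and 189, 188 and 215, 9.55-fold higher (limma adjusted p = 0.00015). DAL3, which acts in the next step of allantoin breakdown, gave 373, 50.3 and 46.9 and 307, 260.0 and 346. In each of these genes the carbon-limited replicates 2 and 3 lay below every other mutant array. The allantoinase gene DAL1, the malate synthase-like gene DAL7 and DCG1 from the same pathway rose by 2.18, 2.62 and 1.94 on the log2 scale, and the nitrilase gene NIT1 by 2.08. CAR1, arginase, gave 205, 56.3 and 108 and 159, 164 and 159.7, and CAR2, ornithine aminotransferase, gave 542, 59.1 and 237 and 349, 384 and 286. Both rose (log2 1.04 and 1.51), calls that were lost without carbon-limited replicate 2, and carbon-limited replicate 3 was closer to the nitrogen-limited arrays than replicate 2 for both. PUT2, the next step of proline breakdown, and the amidase gene AMD2 had log2 changes of 0.87 and 0.99 and missed the fold of 2.

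Among 15 tested regulators of nitrogen use, 2 rose (13.3%, against 5.16% of all genes). DAL80, a GATA repressor that is itself under nitrogen control, gave 92.1, 12 and 12 and 223, 139 and 131, at least 13.3-fold higher (limma adjusted p = 1.7e-08). GAT1, the GATA activator, gave 640.0, 100.4 and 195 and 709, 709.5 and 425, 4.27-fold higher (limma adjusted p = 0.00033). The allantoin pathway activator gene DAL82 had a log2 change of 0.96, under the fold. The list median was 0.48. None of 8 genes of ammonium assimilation and linked steps was called (limma p below 0.05 after adjustment for 2 of them), with a list median of 0.35. The 8 are GDH1, GDH3, GLT1, GLN1, the glutamate-degrading gene GDH2 and the isocitrate dehydrogenase genes IDP1, IDP2 and IDP3. GLN1 and GDH2 are also counted among the breakdown genes.

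Of 20 genes for amino acid permeases outside that system and for their regulators, 5 fell, 1 rose and 14 were not called. The called share was 30%, against 5.16% of all genes, and the median was -0.27. The list holds the sensor gene SSY1, the signalling genes PTR3, SSY5, STP1 and STP2, and BSC6, none of which was called. BAP3, a branched-chain amino acid permease, gave 12, 135 and 145 under carbon limitation and 12, 12 and 12 under nitrogen limitation, at least 11.7-fold lower (limma adjusted p = 2.3e-09). GNP1, a glutamine permease, gave 12, 144 and 267 and 25.2, 17.0 and 14.6, 10.6-fold lower (limma adjusted p = 0.00014). Replicate 1 was at the floor for both, and no nitrogen-limited array overlapped replicates 2 and 3. The methionine permease gene MUP1, the histidine permease gene HIP1 and BAP2 fell by 1.31, 1.07 and 1.06 on the log2 scale. Their calls were lost in 8, 4 and 11 of the alternatives, for BAP2 among them scaling to a common median. DIP5, a permease for glutamate and aspartate, rose from 388 and 391 on carbon-limited replicates 2 and 3 to 919, 888 and 980.3, and replicate 1 had 938. Genes for vacuolar proteases, which release amino acids from proteins, gave 1 rise of 10 (10%, against 5.16% of all genes). It was the aminopeptidase gene APE1 (log2 1.06, limma adjusted p = 0.014). The APE1 call was lost with array weights and without nitrogen-limited replicate 3 or carbon-limited replicate 2. None of 30 autophagy genes was called, with 1 past the adjusted p alone and a median of 0.06.

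Of 41 glucose-repressed genes for carbon metabolism, 12 fell and 2 rose (34.1% called, against 5.16% of all genes). The median was -0.33, and 15 had a log2 change above 0. RGI2, counted among the 12 that fell, was at least 21.7-fold lower without replicate 1. It helped to mark that array, so its change and its place in the count are no independent evidence. SUC2, invertase, gave 146, 1363 and 1249 under carbon limitation and 199.7, 309.5 and 98.0 under nitrogen limitation, 7.16-fold lower (limma adjusted p = 2.2e-05). HAP4, the activator subunit that drives respiratory genes, gave 30.0, 161 and 152 and 45.9, 60.3 and 55.2 (log2 -1.55). The lactate permease gene JEN1 fell from 46.5 and 51.3 on carbon-limited replicates 2 and 3 to 14.8, 12 and 12, and ISF1 from 253 and 224 to 59.1, 43.7 and 56.8. The other members that fell were REG2, MAL33, ACS1, POT1, YAT2, ATO3 and GAL4, with log2 changes of -2.62 to -1.01. The calls of YAT2, POT1 and ATO3 were lost in 11, 10 and 8 of the alternatives, and the values for REG2 and GAL4 are lower bounds in size because nitrogen-limited arrays were at the floor. The 2 that rose, MLS1 and DAL7, are a malate synthase and its paralog in allantoin breakdown, and DAL7 is also under nitrogen control. MLS1 gave 69.6, 12 and 12 and 77.8, 88.0 and 111, at least 7.62-fold higher (limma adjusted p = 5e-06). Without carbon-limited replicate 3, the list had 7 lower and 2 higher.

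Of 22 hexose transport and glucose sensing genes, 7 were higher and 3 lower (45.5% called, against 5.16% of all genes). The median was -0.03. HXT4, a transporter of moderate affinity, gave 731, 24.5 and 23.5 under carbon limitation and 737, 810.1 and 743 under nitrogen limitation. The groups without replicate 1 were far apart (31.8-fold, log2 4.99 ± 1.10 SE, limma adjusted p = 0.0084). The large SE comes with wild-type nitrogen-limited arrays of 784, 791 and 12, which share the estimate of spread, and the call was lost with array weights and without carbon-limited replicate 2. The low-affinity transporter HXT3 gave 1014, 209 and 159 and 807, 635 and 1352, 4.85-fold higher (limma adjusted p = 6.1e-05). HXT1, HXT2, the glucose signalling gene STD1, the transporter repressor gene RGT1 and the repressor gene MIG2 rose by 1.31, 1.20, 1.20, 1.37 and 1.30 on the log2 scale, where the values for HXT1 and MIG2 are lower bounds because carbon-limited replicates 2 and 3 were at the floor. The high-affinity transporters HXT6 and HXT7, which are near-identical and may share signal on the array, fell to 1323, 1204 and 1671 and 1117, 1041 and 1500.1 from 3508 and 3562 and 3115 and 2863 on carbon-limited replicates 2 and 3. MTH1, which acts with STD1, fell (log2 -1.07). The calls of HXT1, MIG2, RGT1 and MTH1 were lost in 10, 8, 7 and 6 of the alternatives. Without carbon-limited replicate 2, 2 members were higher and 3 lower, and the calls of HXT1, HXT2, HXT4, MIG2 and RGT1 were lost.

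Many respiratory chain genes fell, although no culture received oxygen. Of 43 tested genes, 28 were lower and 0 higher (65.1% called, against 5.16% of all genes). Of the 43, 41 had a log2 change below 0, and the median was -1.15. The list holds subunits of the respiratory complexes and ATP synthase and other proteins, such as CYB2, CYB5 and INH1. CYC1, the main isoform of cytochrome c, gave 33.6, 184 and 271 under carbon limitation and 35.5, 25.3 and 38.1 under nitrogen limitation, 6.88-fold lower (limma adjusted p = 1.2e-08). COX7, a subunit of cytochrome c oxidase, gave 169, 959.7 and 665 and 173, 169 and 169, 4.7-fold lower (limma adjusted p = 7.4e-06). QCR10 and CYT1, of the cytochrome bc1 complex, were 4.14-fold and 3.8-fold lower. Falls spanned succinate dehydrogenase (SDH2, log2 -1.45), the bc1 complex (QCR7, -1.42), cytochrome oxidase (COX4, -1.63, and COX12, -1.72) and ATP synthase (ATP3, -1.09). In the tricarboxylic acid cycle list, 2 of 25 fell (8%, against 5.16% of all genes). They were the malate dehydrogenase gene MDH1 (log2 -1.20) and the citrate synthase gene CIT1 (-1.18). With only the compared arrays in the fit, the respiratory list had 6 calls, all lower. With all 6 mutant arrays its median was -0.70 and limma called none.

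**Figure D3:**
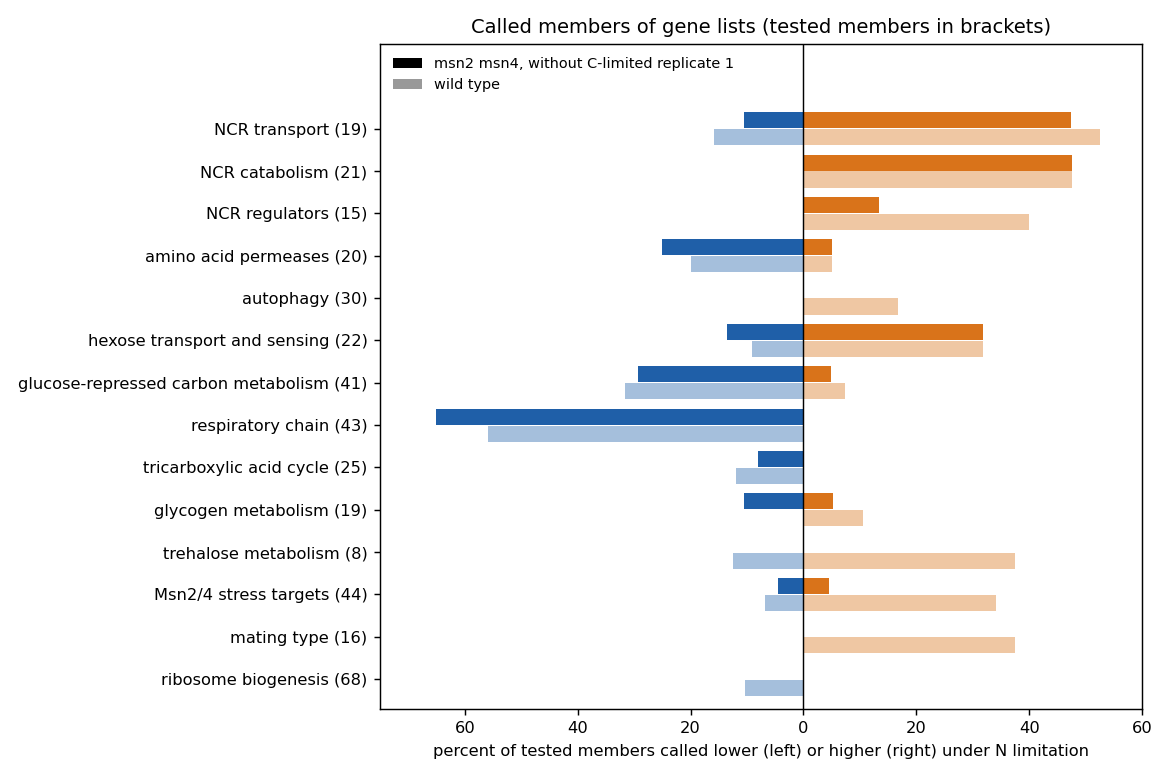
Percent of the tested members of 14 gene lists called higher (to the right) or lower (to the left) under nitrogen limitation, in the mutant without carbon-limited replicate 1 (dark bars) and in wild type (pale bars). The longest dark bar is that of the respiratory chain, with 28 of 43 members lower. The Msn2/4 target list has 2 higher and 2 lower of 44 in the mutant against 15 and 3 in wild type. Over all genes, 5.16% were called in the mutant and 10.6% in wild type.

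The glycogen genes were one subject of the study. Of 19 tested genes, 1 rose and 2 fell (15.8%, against 5.16% of all genes), with a median of -0.07, and none of the 3 calls was kept with only the compared arrays in the fit. GLC3, the branching enzyme, gave 50.1, 125 and 154 under carbon limitation and 54.7, 43.4 and 55.3 under nitrogen limitation, 2.74-fold lower without replicate 1 (limma adjusted p = 0.00033). GAC1, which targets protein phosphatase to glycogen synthase, gave 19.3, 47.2 and 59.6 and 28.7, 22.3 and 24.9 (log2 -1.08, limma adjusted p = 0.044), and lost its call in each of the 5 fits that left out 1 further mutant array. SGA1, a glucoamylase known from sporulation, gave 177, 22.6 and 32.9 and 109, 78.8 and 73.6, 3.14-fold higher (limma adjusted p = 0.0025), with replicate 1 above every nitrogen-limited array, and its call was lost without carbon-limited replicate 2.

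The glycogen synthase genes GSY1 and GSY2 were not called. GSY1 gave 25.5, 25.0 and 36.9 and 16.4, 19.6 and 22.2 (log2 -0.66 ± 0.20 SE, limma adjusted p = 0.059), and GSY2 gave 79.5, 50.1 and 68.3 and 66.6, 56.4 and 67.5 (log2 0.11 ± 0.23 SE). The arrays of both groups were close for GSY2. The wild-type arrays had 130 to 175 for GSY1, without a call. GPH1, glycogen phosphorylase, gave 13.2, 23.3 and 21.1 and 20.9, 21.9 and 20.7 in the mutant, against 205, 181 and 252 and 514, 692 and 521 in wild type. Its log2 change was -0.07 ± 0.51 SE in the mutant and 1.44 ± 0.46 SE in wild type, where it was called, and the difference of the changes was not called (log2 -1.51 ± 0.69 SE, limma adjusted p = 0.2). PIG2, a phosphatase targeting subunit, gave 12, 24.7 and 20.2 and 15.7, 19.4 and 12 in the mutant and 45.7, 34.3 and 39.5 and 86.8, 104 and 96.7 in wild type. Its difference of changes was called (log2 -1.81 ± 0.36 SE, limma adjusted p = 0.015), but not without carbon-limited replicate 2. The remaining glycogen genes, among them the glycogenins GLG1 and GLG2, the debranching enzyme GDB1 and the Pho85 cyclins PCL6, PCL7, PCL8 and PCL10, had log2 changes between -0.67 and 0.53 and no call.

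None of the 8 tested trehalose genes was called in the mutant (1 passed the adjusted p alone, and the median was 0.09), where wild type had 3 higher and 1 lower. TPS1, trehalose-phosphate synthase, gave 191, 156 and 258 and 231, 221 and 182, a log2 change of 0.07 ± 0.26 SE. TPS2, the phosphatase of the complex, gave 188, 131 and 208 and 135, 138 and 97.5 in the mutant and 163, 140.1 and 141 and 272, 305 and 266 in wild type. The mutant groups overlapped and the wild-type groups did not, and the difference of the changes was -1.36 ± 0.33 SE (limma adjusted p = 0.036). That call was lost when arrays were scaled to a common median, when no floor was used, and in 7 of the fits that left out 1 array.

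The regulatory subunits TPS3 and TSL1 had log2 changes of -0.03 and 0.64 in the mutant and called rises of 1.11 and 1.38 in wild type. NTH1, neutral trehalase, gave 128, 68.1 and 83.7 and 115, 160.3 and 125, a log2 change of 0.81 (limma adjusted p = 0.011) that missed the fold of 2. The differences of the changes were not called for these 3 genes (limma adjusted p = 0.084, 0.13 and 0.34). MAL11, a maltose and trehalose permease, gave 36.7, 47.5 and 47.4 and 36.7, 40.7 and 36.2 in the mutant, while wild type had 703, 1031 and 918 under carbon limitation and 108, 127 and 117 under nitrogen limitation. The mutant arrays lay below all 6 wild-type arrays and barely differed between the limitations, a difference of changes of 2.57 ± 0.27 SE (limma adjusted p = 0.00014).

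Glucose phosphorylation had 2 falls among 8 genes of glucose phosphate metabolism (25%, against 5.16% of all genes). HXK1, the hexokinase isoform made at low glucose, gave 293, 2126 and 2297 and 291, 285 and 449, 6.61-fold lower (limma adjusted p = 5.8e-07), against a log2 change of -1.46 in wild type. The difference was called (log2 -1.26 ± 0.31 SE, limma adjusted p = 0.04) but was lost with scaling to a common median and in 10 of the 11 fits that left out 1 array. EMI2, a paralog of glucokinase, fell in both strains by similar amounts (log2 -1.27 and -1.25).

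**Figure D4:**
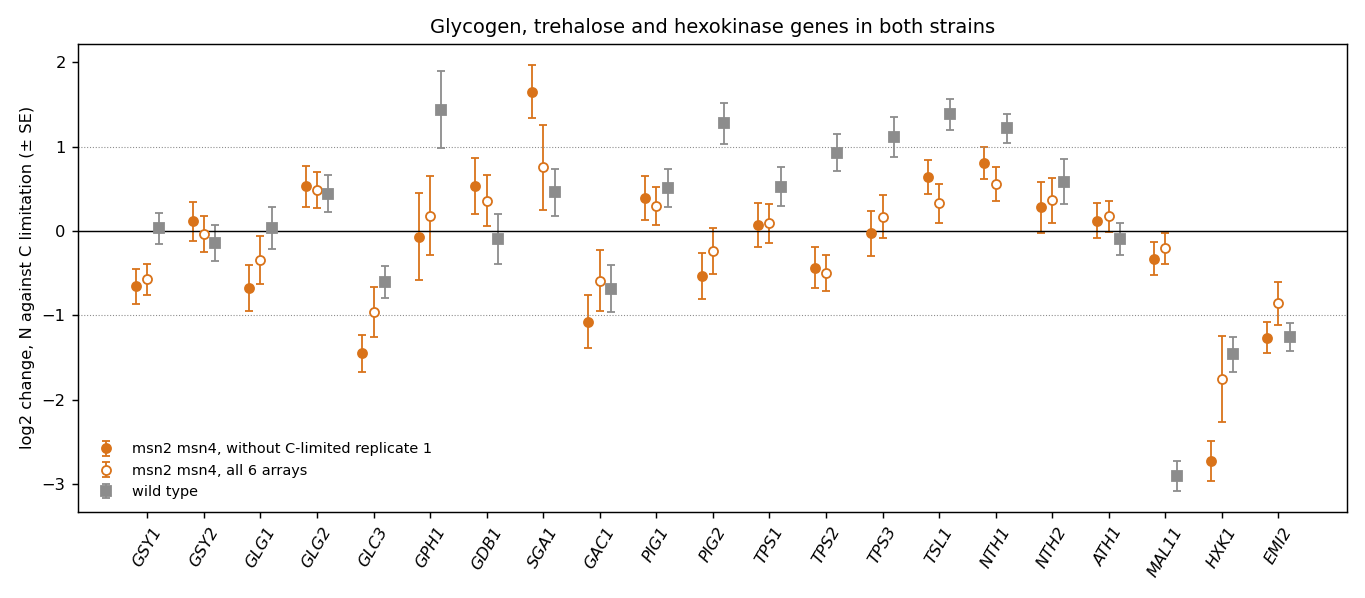
Log2 change under nitrogen against carbon limitation with its SE for 21 genes of glycogen, trehalose and glucose phosphorylation, in the mutant without carbon-limited replicate 1 (filled circles), in the mutant with all 6 arrays (open circles) and in wild type (squares); dotted lines mark a fold of 2. GPH1, PIG2, TPS3, TSL1 and NTH1 lie above the upper line in wild type only, and MAL11 lies near 0 in the mutant and at -2.90 in wild type.

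Of 44 known targets of Msn2 and Msn4, 2 rose and 2 fell in the strain that lacks both factors (9.09%, against 5.16% of all genes), with a median of 0.10. ALD2, an aldehyde dehydrogenase, gave 35.9, 19.6 and 24.9 and 66.3, 86.3 and 61.8, 3.2-fold higher (limma adjusted p = 0.0022). DDR48, a stress protein gene, gave 2129, 833 and 818 and 1443, 1678 and 2962 (log2 1.22, limma adjusted p = 0.011). MRK1, a glycogen synthase kinase 3 homolog, gave 33.6, 139 and 122 and 30.1, 40.0 and 40.4, 3.56-fold lower (limma adjusted p = 7.1e-05), and OM14, a mitochondrial outer membrane protein, fell by 1.56 on the log2 scale. The calls of ALD2, DDR48 and OM14 were lost without carbon-limited replicate 2. HSP12, a membrane-stabilising stress protein gene, gave 334, 219.7 and 185 and 247, 364 and 235 in the mutant and 256, 381 and 338 and 1226, 1084 and 1427 in wild type. YGP1, a secreted stress glycoprotein gene, gave 139, 57.7 and 85.8 and 111, 93.3 and 102, against 102, 106 and 98.2 and 525, 721 and 502. The difference of changes was called for HSP12 (log2 -1.50 ± 0.34 SE, limma adjusted p = 0.026) and YGP1 (-1.96 ± 0.39 SE, 0.015), and for ECM4 (-1.29), MRK1 (2.25) and SIP18 (1.07). The HSP12, YGP1 and ECM4 calls were lost when arrays were scaled to a common median, and those of HSP12 and ECM4 also without carbon-limited replicate 2. SIP18 was at or next to the floor on all 6 mutant arrays.

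In wild type, nitrogen against carbon limitation called 580 genes (10.6%), 365 higher (6.68%) and 215 lower (3.94%), in the same fit. Of the 282 mutant calls, 142 were called in wild type in the same direction (50.4% of the mutant calls and 24.5% of the wild-type calls) and 0 in the opposite one. They were 65 higher and 77 lower genes. Over all genes, as a description with no test, the log2 changes of the strains correlated with Pearson's r of 0.50 and Spearman's rho of 0.33. In wild type, 10 of 19 nitrogen transport genes were higher and 3 lower, 10 of 21 catabolic genes were higher and 0 lower, and 6 of 15 regulators were higher, against 2 in the mutant. Respiratory genes had 24 lower and 0 higher of 43 in wild type, and Msn2/4 targets 15 higher and 3 lower of 44. With common-median scaling, 30.1% of the wild-type calls were higher, against 63.0% with the trimmed mean. Of 438 genes called in wild type and not in the mutant, 77 had a called difference of changes, so for the rest a difference between the strains was not shown.

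**Figure D5:**
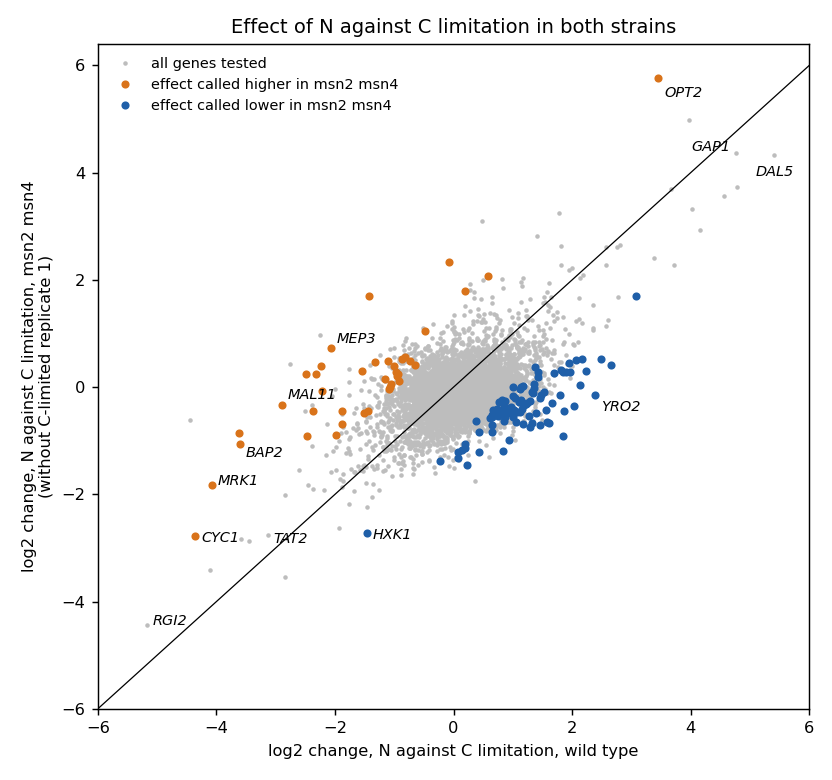
Log2 change under nitrogen against carbon limitation in wild type (horizontal axis) and in the mutant without carbon-limited replicate 1 (vertical axis) for 5461 genes in grey, with genes whose change was called higher (orange) or lower (blue) in the mutant; the line marks equal changes. Blue points gather where wild type rose and the mutant did not, and OPT2 lies above the line with 5.77 in the mutant and 3.45 in wild type.

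The direct test of the difference between the strains' changes called 135 genes without replicate 1 (2.47%), 39 with a higher change in the mutant (0.714%) and 96 with a lower one (1.76%). With all arrays it called 82 (1.5%), and 72 were called in both. The median of all genes was -0.20 on this scale, and the split depended on scaling: with each array scaled to a common median, the median over genes was 0.10 and 82 genes had a higher and 27 a lower change. With quantile normalisation the split was 84 higher and 63 lower. The next 6 genes kept their call and direction under each of these scalings.

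OPT2 rose more in the mutant than in wild type, by 2.32 ± 0.42 SE on the log2 scale (limma adjusted p = 0.0091). The wild-type carbon-limited arrays had 169, 215 and 228, above the mutant's 2 low values, and the nitrogen-limited arrays had 1912, 2590.0 and 2172. CYC1 fell less in the mutant (difference 1.57 ± 0.24 SE, limma adjusted p = 0.0023), a bound set by wild-type nitrogen-limited arrays at the floor. MEP3 had the second largest difference in the positive direction (2.80 ± 0.44 SE, limma adjusted p = 0.0032). BAP2 differed by 2.54, with 38.2, 49.4 and 66.1 and 38.6, 33.3 and 16.0 in the mutant and 342, 336 and 295 and 25.8, 22.6 and 32.6 in wild type. PIN4, a cell cycle checkpoint gene, gave 144, 200.2 and 196 and 129, 198 and 145 in the mutant and 32.4, 40.9 and 35.4 and 167, 134 and 142 in wild type, a difference of -2.38 ± 0.35 SE (limma adjusted p = 0.0015). GYP6, a GTPase-activating protein gene of vesicle transport, differed by -2.31 ± 0.30 SE (limma adjusted p = 0.00071). For PIN4 the mutant had the wild-type nitrogen-limited level under both limitations.

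The genes called in the wild-type arrays alone gave a scale on which each mutant array could be placed, with 0 at the wild-type carbon-limited mean and 1 at the nitrogen-limited mean. Over 580 genes the median position was 0.239 and 0.297 for carbon-limited replicates 2 and 3, 0.654 for replicate 1, and 0.801, 0.748 and 0.611 for the nitrogen-limited arrays. Replicate 1 thus lay within the range of the nitrogen-limited arrays. For 13 transport genes under nitrogen control, replicates 2 and 3 lay at 0.041 and 0.101, replicate 1 at 0.852 and the nitrogen-limited arrays at 0.977, 0.944 and 0.920. DAL5 and RGI2, which marked replicate 1, were not set aside on this scale. The positions of replicate 1 over all genes and over transport genes are thus not fully independent of how it was singled out. For 24 respiratory genes the nitrogen-limited arrays lay at 1.20, 1.02 and 0.905 and replicate 1 at 1.18. For 18 Msn2/4 targets the nitrogen-limited arrays lay at 0.510, 0.868 and 0.391, and replicate 1 at 0.348. Under nitrogen limitation the mutant arrays were thus near 1 for these transport and respiratory genes. For Msn2/4 targets they were spread between the ends, which was not particular to these targets. The nitrogen-limited arrays lay at 0.634, 0.419 and 0.359 for 5 autophagy genes and at 0.823, 0.655 and 0.626 for 6 mating genes. For 16 glucose-repressed genes they lay at 1.06, 1.04 and 1.16.

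Among the other lists, glycolysis and fermentation had 1 call of 30 (3.33%, against 5.16% of all genes), a rise of the pyruvate decarboxylase gene PDC5 (log2 1.08). Sulfur assimilation had 2 rises of 32 (6.25%), the sulfatase gene BDS1 (log2 2.04) and the cysteine transporter gene YCT1 (1.07). The zinc regulon had 2 rises, ZPS1 (1.53) and the zinc transporter ZRT1 (1.35), and 1 fall, IZH4 (-1.28), of 23 (13%). These calls were lost in 2, 5 and 7 of the alternatives. The phosphate regulon had 1 rise of 24 (4.17%), the transporter PHO89, whose call was lost under most alternatives. PHO89 gave 213, 60.6 and 65.1 under carbon limitation and 212, 68.4 and 209.6 under nitrogen limitation. SER3, of serine synthesis, was the only call among 51 amino acid synthesis genes (1.96%, log2 -1.09), and it was lost in 8 of the alternatives. SUT1, a sterol uptake regulator, was the only call among 21 genes of anaerobic cell wall and uptake (4.76%, log2 -1.18). No member was called among 24 ergosterol, 14 pyrimidine, 23 purine, 21 thiamine and NAD, 24 ribosomal protein, 68 ribosome biogenesis, 27 meiosis, 23 iron and 16 mating genes. The ribosomal protein list holds mainly single-copy genes and is only a part of that family. Of the 68 ribosome biogenesis genes, 63 had a log2 change below 0, with a median of -0.32 against -0.07 over all genes. ERG5 and RPS12, which were not called in the mutant (log2 -0.63 and 0.53), had called differences from wild type of -1.01 and 1.39, and both calls were lost with common-median scaling and without carbon-limited replicate 2.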

How the data were processed

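The deposited values are linear Affymetrix probe set signal intensity values, made by the authors with Affymetrix GeneChip Operating Software, per the submitters' processing notes. For the mutant's deposit, the labels' protocols also state that values below 12 were set to 12, but its columns hold lower values, so the floor was set again here. Their 2% trimmed mean was about 150.1 on each of the 12 arrays of the mutant's deposit and 235 to 466 on the others. No p-values or detection calls were used. Each array was scaled to a trimmed mean of 150.1 (2% off each end), floored at 12 and put on the log2 scale. Of 9335 probe sets, 6504 had 1 gene in the platform annotation, 328 several, 2443 none and 60 were controls. The brightest probe set stood for each of 5656 genes, and 195 genes that never exceeded the floor were dropped, which left 5461 for testing. Arrays give no counts, so their number limits the precision.

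limma 3.58.1 in R 4.3.3 was fitted to the means of the 7 groups over all 21 arrays, and again over 20 without carbon-limited replicate 1, with Benjamini-Hochberg adjustment over all 5461 genes. The wild-type contrast and the difference of contrasts came from the same fits. The fit was tested on simulated data. Replicate numbers were checked for pairing: deviations of same-numbered carbon-limited and nitrogen-limited mutant arrays correlated at -0.03, 0.03 and -0.15. The carbon-limited deviations were taken from a mean that includes replicate 1, so this check cannot decide whether the arrays were paired. The numbers were not taken as pairs in the main fits, and a replicate block was run as an alternative. The 30 gene lists and the rule for named genes (label checks, reserve genes, up to 4 called and 2 uncalled members of each list, the 10 most changed genes each way, the 5 largest differences each way and the 8 genes where replicate 1 was nearest to its group) were chosen with earlier results of these data known. Other genes of the lists were named after their values were seen. Alternatives were other scalings, floors, probe sets, array sets, weights, thresholds, blocks and left-out arrays. Promoter and protein sequences were not analysed here.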

Additional observations from a re-analysis of the deposited data

Results flagged for a closer look

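The change under nitrogen against carbon limitation differed between the mutant and wild type by limma's test of the difference (adjusted p below 0.05 and a fold of at least 2, without carbon-limited replicate 1) for 20 genes chosen by the rule for named genes. Strain and deposit cannot be told apart in each of them. Values are the mutant's log2 change minus that of wild type.

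Among transporters, MEP3 differed by 2.80, MAL11 by 2.57 and OPT2 by 2.32. Among genes of reserve carbohydrates and their regulation, MRK1 differed by 2.25, PIG2 by -1.81, TPS2 by -1.36 and HXK1 by -1.26. CYC1 differed by 1.57, the ribosomal protein gene RPS12 by 1.39 and the sterol desaturase gene ERG5 by -1.01. ATG8, the ubiquitin-like protein of the autophagosome, gave 121, 156 and 177 under carbon and 97.7, 92.1 and 64.7 under nitrogen limitation in the mutant and 96.7, 65.9 and 134 and 179.8, 170.5 and 193 in wild type, a difference of -1.92.

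Among the largest positive differences were RNA genes that are not translated. RDN5-3, a copy of the 5S ribosomal RNA whose signal cannot be assigned to 1 of the near-identical copies, differed by 3.11, with nitrogen-limited mutant arrays of 450.3, 1545 and 429.9. RPR1, the RNA of ribonuclease P, differed by 2.76 and YNCJ0006W by 2.72. RSO55 differed by 2.62, with 265, 249 and 290.0 and 51.9, 53.4 and 66.3 in wild type and 251, 93.5 and 180.4 and 154, 169.9 and 188 in the mutant.

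The largest negative differences were YEA4 (-2.74), YRO2 (-2.53), PIN4 (-2.38), GYP6 (-2.31) and CUE3 (-2.28). All 5 were called higher under nitrogen limitation in wild type and none in the mutant. YRO2, a plasma membrane protein gene, gave 102, 169.7 and 137 and 119, 134 and 162 in the mutant, and 40.8, 45.3 and 59.5 and 209.8, 293 and 252 in wild type.

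Without carbon-limited replicate 2 as well, the calls of ATG8, ERG5, HXK1, PIG2, RDN5-3, RPR1, RPS12, YEA4, YNCJ0006W and YRO2 were lost, and with common-median scaling those of ATG8, ERG5, HXK1, RPS12 and TPS2. Groups of 3 arrays are too small for the test of outlying samples.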

How the results depend on the processing

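With all 6 arrays, the mutant count of 3 became 1 with the floor at 24, with only the arrays of the mutant's deposit or with a fold of at least 4, 5 with all probe sets or an intensity trend and robust fit, 0 with only the compared arrays, 246 with array weights, 23 with the replicate block among the mutant arrays and 12 with a term for array codes ending in b, added after seeing the data. Leaving out each replicate gave 1 to 282. Without carbon-limited replicate 1, the count of 282 became 53 with only the compared arrays, 183 with the mutant's deposit, 425 by adjusted p alone and 41 with a fold of at least 4. Leaving out each further replicate gave 142 to 330, and the replicate block gave 270.

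The difference between strains with all arrays (82) became 129 with values as deposited, 45 with no floor, 477 with array weights, 19 with a fold of at least 4 and 143 with the term for codes ending in b, with 39 to 135 on leaving out a replicate. Without carbon-limited replicate 1 (135) it became 301 with values as deposited, 61 with no floor, 245 with only the compared arrays, 343 with array weights and 23 with a fold of at least 4, with 41 to 164 on leaving out a replicate and 180 with the replicate block. Restricting the wild-type scale to 69 genes with a fold of at least 4 moved carbon-limited replicates 1 and 3 to 0.830 and 0.165 and nitrogen-limited replicates 2 and 3 to 0.875 and 0.773.

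No named gene reversed under the alternatives run. Of 95 called in the mutant, 60 lost the call with only the compared arrays and 30 without carbon-limited replicate 2, and of 39 called differences, 7 and 24 did. With 2 or 3 arrays a group, differences close to the scatter between arrays were not detectable.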

Other observations

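Many genes of the mitochondrial ribosome were lower under nitrogen limitation. They were noticed after their values were seen, and were taken as the tested genes whose symbols start with MRP or RSM, which is not a complete list. Of 67, 27 were called lower and 0 higher in the mutant without carbon-limited replicate 1, against 3.19% of all genes called lower. Of the 67, 66 had a log2 change below 0, with a median of -0.96 against -0.07 over all genes. MRPL6, of the large subunit, gave 37.1, 101 and 69.5 under carbon limitation and 38.2, 26.2 and 26.2 under nitrogen limitation. MRPL25, also of the large subunit, gave 43.3, 196 and 118 and 49.0, 48.8 and 61.3, and MRPS17, of the small subunit, gave 36.2, 128 and 93.4 and 43.9, 44.9 and 29.3. The calls of MRPL6 and MRPS17 were lost without carbon-limited replicate 2. Replicate 1 lay with the nitrogen-limited arrays for each of these genes, and its median position over the 27 was 1.06. In wild type, 6 of the 67 were lower and 0 higher, against 3.94% of all genes called lower, with a median of -0.46. The difference between the strains was called for 3 of the 67, against 2.47% of all genes. They were MRPL7 (log2 -1.69), MRPL22 (-1.32) and MRPL1 (-1.30), and each of these calls was lost with common-median scaling. With all 6 mutant arrays the median was -0.59.

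Of 16 mating genes, none was called in the mutant, 6 rose in wild type, and 4 had a called difference of changes. Over all genes, 6.68% were called higher in wild type and 2.47% had a called difference. AGA2, which encodes the binding subunit of a-agglutinin, gave 357, 415 and 489 and 401, 431 and 425 in the mutant and 203, 218 and 210.2 and 493, 683 and 453 in wild type, a difference of -1.45. STE12, the transcription factor of the mating response, gave 60.9, 44.8 and 65.3 and 74.0, 50.3 and 31.2 in the mutant, and 14.9, 33.0 and 36.8 and 93.4, 89.5 and 91.5 in wild type, a difference of -1.95. AGA1 and the cell fusion gene FUS1 differed by -1.55 and -1.64. For AGA1, each mutant carbon-limited array lay above every wild-type carbon-limited array, with 197, 129 and 334 against 72.5, 60.2 and 54.4 and 248, 287 and 242. The calls of AGA1, FUS1 and STE12 were lost with common-median scaling. Deposit and strain cannot be told apart here either.

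A difference was called for 3 of 30 autophagy genes, against 2.47% of all genes. ATG22 and ATG40 differed by -1.54 and -1.51, and ATG8 is given above. Among amino acid synthesis genes, LYS20 and ARO1 differed by 1.42 and 1.86: LYS20, homocitrate synthase, gave 1200.1, 1198 and 1708 and 1001, 1111 and 1024 in the mutant, and 2563, 2327 and 2307 and 592, 624 and 751 in wild type.

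The brightest genes differed between arrays of the same label. CCW12, a cell wall protein gene, gave 10374, 4799.7 and 5345 on the carbon-limited and 5855, 10917 and 9830.2 on the nitrogen-limited mutant arrays, and TDH3 gave 9462, 4335 and 4301 and 4985, 8136 and 9129.6. Carbon-limited replicate 1 and nitrogen-limited replicates 2 and 3 were the high arrays for both genes. Without carbon-limited replicate 1, every nitrogen-limited array lay above both carbon-limited arrays.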
